A study of Mus musculus with 24 samples.

Results

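The immunoglobulin constant genes and Jchain were followed through all cells of Panc02 tumors. The 10 genes, Ighm, Ighd, Igkc, Iglc2, Iglc3, Ighg1, Ighg2b, Ighg2c, Igha and Jchain, were taken by symbol from the 32285 genes of the matrix, and each of them was found. They were read in B cells, in plasma cells and, as immunoglobulin RNA where no antibody is made, in the other cells, by treatment and by preparation. Panc02 is a mouse pancreatic tumor line, and it was implanted under the skin of male C57BL/6 mice 6 to 7 weeks old. The 8 groups were PancVAX, PancVAX + Anti-PD-1 + Anti-CTLA-4, PancVAX + Anti-PD-1, PancVAX + Anti-CTLA-4, Anti-PD-1 + Anti-CTLA-4, Anti-CTLA-4, Anti-PD-1 and Isotype Control. PancVAX, a vaccine of neoantigen peptides (50 μg of each) with AddaVax and a STING agonist, was given on days 12 and 19, and PBS took its place in the other groups. Anti-CTLA-4 (100 μg) was given on days 15 and 22 and anti-PD-1 (100 μg) from day 12, with isotype antibodies in the controls, and tumors were taken on day 38. Cells of several mice of a treatment were pooled, and each treatment had 1 library of whole dissociated tumor and 1 in which immune cells had been enriched by Percoll density separation. Both libraries of a treatment are called its pool here, so that n = 8 pools, and the p values measure the spread between these pools only. The preparations are also the sequencing batches and cannot be told apart from them.

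An antibody joins a pair of heavy chains with a pair of light chains, and the constant gene of the heavy chain sets its class. Ighm encodes the IgM heavy chain and Ighd that of IgD, which naive B cells make together from 1 long transcript by splicing. Class switching deletes them and brings Ighg1, Ighg2b, Ighg2c (IgG) or Igha (IgA) next to the rearranged V region. Igkc is the κ light chain constant gene, and Iglc2 and Iglc3 belong to the λ locus. Jchain joins units of IgM and IgA into larger secreted forms and is a textbook marker of antibody-secreting cells. Constant genes can also be transcribed from their own start sites without a V region, as germline or sterile transcripts. The libraries were made with a 5′ kit, in which the reads of a rearranged transcript begin in the V segment. A UMI (unique molecular identifier, 1 captured molecule) of a constant gene therefore counts only molecules with reads in the constant exons, and how this divides rearranged from sterile transcripts was not tested.

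In the genome used by the files (mm10, with RefSeq coordinates of GRCm38.p6), the heavy chain genes lie on chromosome 12. They run from Ighm (chr12:113418826-113422730) through Ighd (chr12:113407535-113416324), Ighg1 (chr12:113326541-113330523), Ighg2b (chr12:113304314-113307933) and Ighg2c (chr12:113287389-113288932) to Igha (chr12:113256204-113260236). Igkc lies at chr6:70726435-70726754, Iglc2 at chr16:19198536-19198852 and Iglc3 at chr16:19065365-19065681, and RefSeq annotates all 9 as C regions. Iglc2 and Iglc3 are near-identical copies, so that the division of their UMIs is uncertain. Jchain is a protein-coding gene at chr5:88519809-88527897, on the minus strand. The bases just upstream of its RefSeq start are shown because Jchain, unlike the other members, is not joined to a rearranged V region and was used here to find secreting cells. The promoter is given at chr5:88527898-88528147 on the minus strand, with capitals at matches of the E-box motif CANNTG.
Jchain promoter: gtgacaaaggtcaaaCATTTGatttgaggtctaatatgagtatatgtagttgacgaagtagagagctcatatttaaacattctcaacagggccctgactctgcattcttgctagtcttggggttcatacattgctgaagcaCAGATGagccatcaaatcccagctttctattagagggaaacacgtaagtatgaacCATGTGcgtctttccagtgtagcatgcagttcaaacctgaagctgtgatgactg
CANNTG, which reads the same on both strands, was found 3 times in these 250 bases, and 66.2% of 32851 RefSeq promoters of this length hold it at least once. The octamer ATTTGCAT, known from immunoglobulin promoters, was not found on either strand and is present in 1.60% of the promoters.

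The matrix held 144994 barcodes, of which 57355 (39.6%) passed the limits of the study (200 to 3000 genes, 1000 to 10000 UMIs, under 10% mitochondrial UMIs and no hemoglobin UMI). Passing cells summed to 7325594 to 29666753 UMIs per library. Cells were placed in gates by UMIs of genes that are not immunoglobulin genes, except Jchain for plasma cells. The B gate (a Cd79a UMI and a UMI of Cd79b, Ms4a1 or a further B cell marker) held 2369 cells, 4.13% of passing cells and 14 to 470 per library, and the T gate 13496. The fewest B cells were in both libraries of PancVAX + Anti-PD-1, with 14 and 16. Cells were chosen by some B cell markers, so the label was read from 6 that no gate used (Cd22, Pax5, Ebf1, Blk, Bank1 and Fcmr). They summed to 3122 UMIs per 1000000 UMIs of the gate (CPM) in the B gate, 4.82 in the T gate and 36.4 in the gate of plasmacytoid dendritic cells (pDCs). The plasma gate stood at 700 CPM, and the remaining gates ran from 6.38 in NK cells through 56.6 in macrophages to 121 in endothelial cells. Cells that met several gates (4739) were left out as possible doublets. Of 55241 distinct passing barcodes, 2057 occurred in 2 or more libraries, 160 of them in both libraries of 1 pool.

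The switched classes and Jchain came from very few barcodes. A plasma definition (3 or more Jchain UMIs, 2 or more of 10 secretory markers, and no Siglech or Cd3 UMI) was met by 32 of the 144994 barcodes. These 32 barcodes held 96.6% of all Ighg2c UMIs, 89.5% of Ighg2b, 85.4% of Igha, 83.2% of Ighg1 and 43.6% of Igkc. They held 6.91% of Ighm and no Ighd UMI. Of the 10264 Jchain UMIs, which chose the barcodes, 95.9% lay in them.

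Most plasma-type barcodes were larger than the limits of the study allow, and so were many other barcodes. Of 120414 barcodes of all kinds that passed the other limits, 57355 passed the upper limits too. Only 11 of the 32 passed every limit, 10 of them in the plasma gate and 1 in several gates, and the other 21 exceeded an upper limit. Passing cells as a whole therefore kept 10.5% of the Jchain UMIs, 1.28% of Ighg2c, 11.1% of Ighg2b and 16.3% of Igha, but 79.2% of Ighd and 53.3% of Ighm. The barcodes held 1916 to 57619 UMIs (median 13291), and 10 of the 32 also met another gate, so that some may hold more than 1 cell. Whether the large barcodes are single cells was not tested.

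The plasma-type barcodes fell apart by how much of their RNA was immunoglobulin. In 19 of the 32, immunoglobulin genes and segments took 18.6% to 79.2% of UMIs (median 53.9%), with 32 to 1466 Jchain UMIs. In the other 13 they took 0.00789% to 5.54%, with 3 to 78 Jchain UMIs. In the plasma gate, 5 of the 10 passing cells were of the first kind (39.5% to 69.1%) and 5 of the second (0.171% to 1.29%). Of 11 plasma markers, only Tnfrsf17, the BCMA receptor of plasma cells, was at 0 in the plasma gate, and it was at 0 in the B and T gates too. The 11 summed to 24827 CPM in the plasma gate, but they are the markers that chose the barcodes. The B cell markers summed to 3300 CPM in the same gate. The plasma label was therefore borne out by immunoglobulin RNA in some of these barcodes and not in others.

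A heavy chain class (3 or more UMIs and 80% or more of the heavy chain constant UMIs of the barcode) was found for 22 barcodes. It was Ighg2b in 7, Igha in 5, Ighm in 5, Ighg2c in 4 and Ighg1 in 1, so that 17 of the 22 were switched. The 10 barcodes with no class were all among the 13 poor in immunoglobulin. The highest single barcode held 1538 Ighm UMIs, 1404 of Ighg2b, 1488 of Igha, 1095 of Ighg2c or 144 of Ighg1. Igkc led the light chain in 17 of the 19 barcodes rich in immunoglobulin, while Iglc2 led 1 IgM barcode (133 of 169 light chain constant UMIs) and Iglc1 led 1 Ighg2c barcode (340 of 396).

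**Figure D1:**
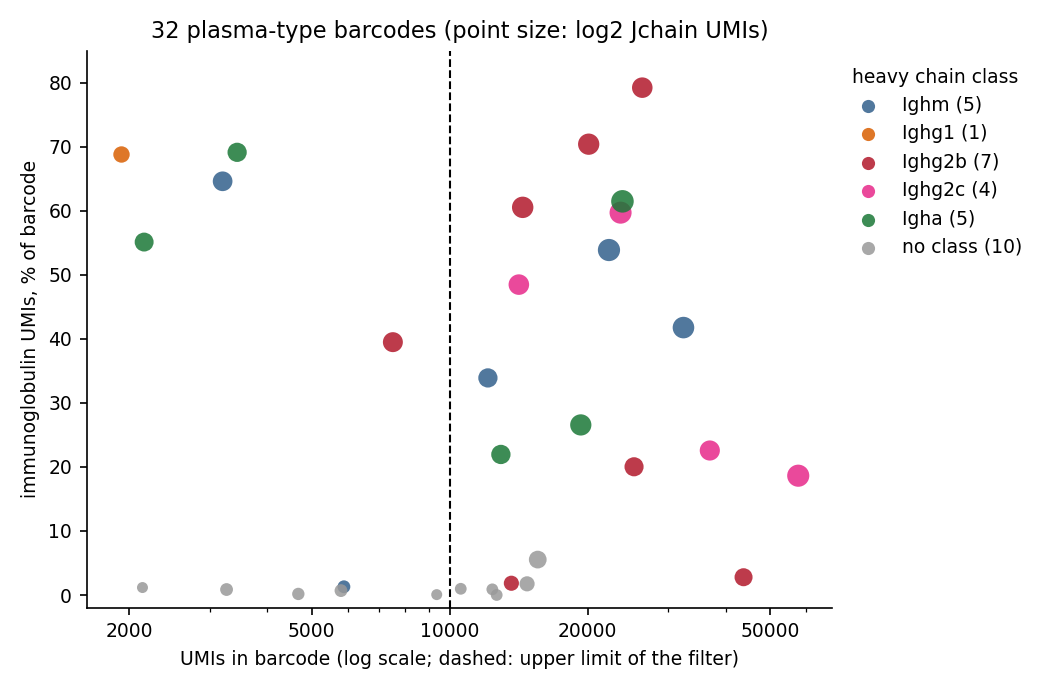
Each of the 32 plasma-type barcodes by its UMIs (x axis, log scale) and the percent of these from immunoglobulin genes and segments (y axis); colors give the heavy chain class, point size the log2 of Jchain UMIs, and the dashed line the upper limit of 10000 UMIs. The 19 barcodes with 18.6% or more lie on both sides of the limit, and the 13 with 5.54% or less include all 10 without a heavy chain class.

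The V segments were nearly pure within the 19 barcodes rich in immunoglobulin, where the leading Ighv segment took 99.1% or more of Ighv UMIs. Among 24 barcodes with 10 or more Ighv UMIs, Ighv1-82 led in 8, from 5 pools and with 7 different light chain segments. In the B gate the same segment took 3.18% of Ighv UMIs and ranked 7. A pair of barcodes of the Anti-PD-1 + Anti-CTLA-4 Percoll library both used Ighv1-26 (107 of 107 and 162 of 162 Ighv UMIs) with Igkv3-4 (987 of 995 and 889 of 897 light chain V UMIs). The first had 144 of 144 heavy chain constant UMIs in Ighg1 and the second 79 of 79 in Igha. In the 7 libraries with passing plasma gate cells, the leading V segment took 35.3% to 100% of their V segment UMIs.

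Jchain differed widely between libraries, from 0 UMIs in PancVAX whole tumor and Isotype Control Percoll to 2294 in Anti-PD-1 + Anti-CTLA-4 Percoll. Of the 2294, the highest single barcode held 740. In PancVAX + Anti-CTLA-4 whole tumor 1 barcode held 1092 of 1121, and in Anti-PD-1 + Anti-CTLA-4 whole tumor 1 held 1151 of 1177. Plasma-type barcodes came from 10 libraries of 7 pools, 16 from pools with PancVAX and 22 of the 32 from Percoll libraries. Isotype Control had none. The plasma gate share of passing cells averaged 0.0224% ± 0.0246 (SD, n = 4) with PancVAX and 0.0106% ± 0.0128 without (difference 0.0118 percentage points, exact two-sided permutation p = 0.457, adjusted 0.610 over 8 share tests). It did not pass the threshold for anti-PD-1 (0.0057 points, exact permutation p = 0.83, adjusted 0.857), anti-CTLA-4 (0.0214 points, p = 0.143, adjusted 0.381) or Percoll against whole tumor (0.0158 points, exact sign-flip p = 0.0625, adjusted 0.250). The gate held 10 cells in all, and what size of difference could be detected was not tested.

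Ighm was not confined to B cells. In the B gate it stood at 1208 CPM, with a UMI in 87.7% of cells. In the pDC gate it stood at 732 CPM (91.7% of cells), in macrophages at 169 (39.6%), in NK cells at 149 (34.0%), in neutrophils at 116 (15.3%) and in T cells at 60.5 (15.7%). Tumor and other epithelial cells held 2.85 CPM with a UMI in 1.46% of cells, although their median depth of 5892 UMIs exceeded the 2045 of the B gate. Stromal cells held 2.18 CPM and endothelial cells 4.45. With each cell thinned to 1000 UMIs, the expected shares of cells with a UMI were 67.0% in the B gate, 50.5% in pDCs, 14.5% in macrophages, 12.2% in NK cells, 10.2% in neutrophils, 5.46% in T cells and 0.389% in epithelial cells. Macrophages, being many, held 41.5% of the Ighm UMIs of passing cells, the B gate 24.4% and T cells 12.9%.

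The order of the gates for Ighm was tested over the 8 pools, as a test chosen after the levels had been seen. B gate values ran from 824 to 1753 CPM (median 1230) and pDC values from 506 to 1095 (median 724), and the B gate was higher in 8 of 8 pools. The B gate over pDC, pDC over macrophage, neutrophil over T cell and T cell over endothelial steps each held in 8 of 8 pools (exact sign-flip permutation p = 0.0078, the smallest possible, adjusted 0.0278 over 32 tests). Macrophages and NK cells, and NK cells and neutrophils, did not separate beyond their spread (exact permutation, adjusted p = 0.375 and 0.989), where NK values ran from 26.5 to 191 CPM. Macrophages (143 to 192 CPM) lay above neutrophils (106 to 131) in 8 of 8 pools without overlap (log2 difference 0.51, SD 0.16, exact sign-flip permutation p = 0.0078, a single test added later). Endothelial, epithelial and stromal cells did not separate either (adjusted p = 0.813 and 0.268, exact permutation).

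**Figure D2:**
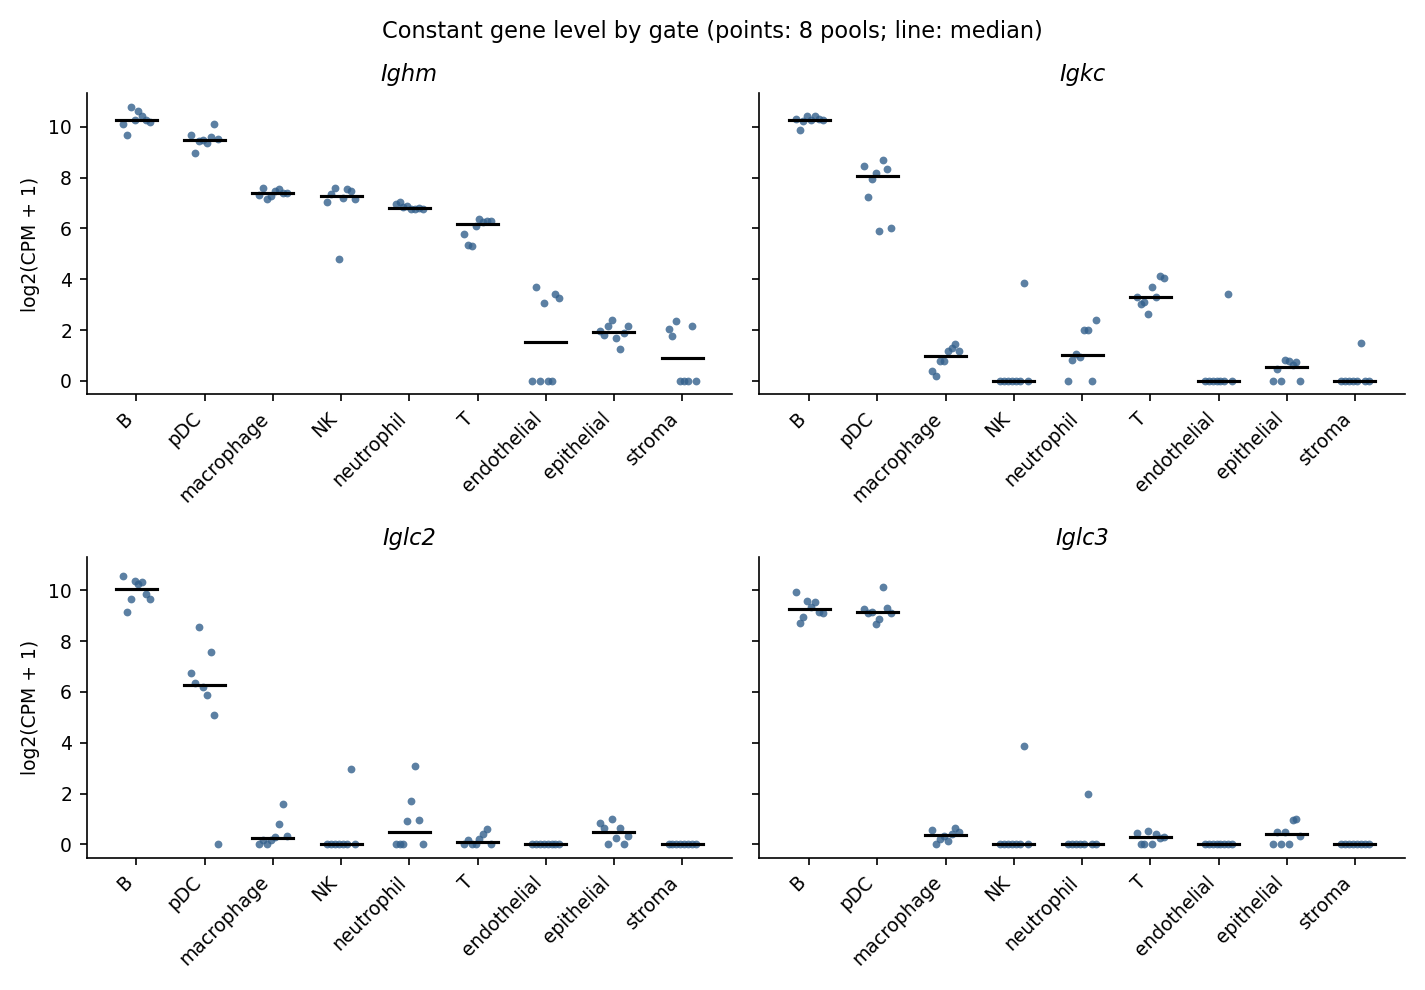
Level of Ighm, Igkc, Iglc2 and Iglc3 in 9 gates, as log2(CPM + 1) on the y axis; points are the 8 pools and lines their medians. Ighm steps down from B cells through pDCs (506 to 1095 CPM) to myeloid and T cells, whereas Iglc3 is as high in pDCs as in B cells and near 0 elsewhere.

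The light chain genes were more restricted. Igkc stood at 1261 CPM in the B gate, 236 in pDCs, 9.60 in T cells, 1.43 in neutrophils, 0.975 in macrophages and 0.362 in epithelial cells. The steps from B gate to pDC, pDC to T cell and T cell to neutrophil each held in 8 of 8 pools (adjusted p = 0.0278, exact sign-flip permutation). Iglc2 fell from 1068 CPM in the B gate to 127 in pDCs (higher in 8 of 8 pools, adjusted p = 0.0278, exact permutation) and stood at 1.05 or less in the other gates outside plasma cells. Ighd stood at 537 CPM in the B gate, 9.12 in NK cells, 3.47 in pDCs, 1.12 in T cells and 1.02 in macrophages. The NK value rests on 10 UMIs and did not pass the test against macrophages (higher in 5 of 8 pools, exact sign-flip permutation p = 0.0625, adjusted 0.0625 over 8 tests).

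Iglc3 behaved differently in pDCs. It stood at 664 CPM in the B gate and 600.5 in the pDC gate (UMI in 68.8% of pDCs), and at 1.82 or less in every other named gate except plasma cells. Pool values were 415 to 990 CPM (median 610.0) in the B gate and 407 to 1114 (median 564) in pDCs, so that the groups overlapped throughout. The log2 difference of B gate over pDC was 0.08 (SD 0.53, higher in 4 of 8 pools, exact permutation p = 0.680). Iglc2 made up 61.7% (exact 95% interval 60.6% to 62.7%) of Iglc2 and Iglc3 UMIs in the B gate and 17.4% (13.9% to 21.4%) in pDCs. The pDC gate held 422 Ighm UMIs in 100 of its 109 cells but 1 Ighv UMI, 30 of Igkv and 3 of Iglv. The 6 B cell markers outside the gate rules, at 36.4 CPM there, are given above, and their part in these values was not tested.

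The genes did not keep 1 ratio from gate to gate. Of the UMIs of Igkc and Ighm together, Igkc took 51.1% (50.2% to 52.0%) in the B gate, 24.4% (20.9% to 28.2%) in pDCs, 13.7% (12.6% to 14.8%) in T cells and 0.573% (0.439% to 0.736%) in macrophages. Of Ighd and Ighm together, Ighd took 30.8% (29.8% to 31.7%) in the B gate, 1.82% (1.40% to 2.33%) in T cells and 0.601% (0.463% to 0.767%) in macrophages. Within each of the 16 libraries both shares were lower in T cells and in macrophages than in the B gate. The Igkc share ran from 36.3% to 61.0% over libraries in the B gate, from 5.02% to 25.7% in T cells and from 0% to 1.52% in macrophages. Which share of these UMIs is free RNA was not tested. In macrophages 5398 cells held Ighm, of which 21 also held Igkc and 21 an Ighv UMI. Of all 13629 macrophages, 43 held Igkc. In T cells 2122 held Ighm, of which 65 held Igkc and 8 an Ighv UMI. Of all 13496 T cells, 317 held Igkc.

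Traces of switched genes also differed between gates. Ighg2b held 260 UMIs in 152 macrophages (4.15 CPM), and none of these cells held Igkc while 132 held Ighm. Of all macrophages, 0.316% held Igkc and 39.6% held Ighm, so that none with Igkc among 152 is not read as a result. Over pools it ran from 1.56 to 7.97 CPM in macrophages (median 3.91), from 0 to 0.298 in T cells, from 0 to 0.196 in epithelial cells and stayed at 0 in neutrophils. The groups did not overlap, and macrophages were higher in 8 of 8 pools in each comparison (exact sign-flip permutation p = 0.0078, adjusted 0.0104 over 8 tests chosen after the levels had been seen). Igha went the other way, at 2.04 CPM in T cells and 0.256 in macrophages (higher in T cells in 8 of 8 pools, exact permutation, adjusted p = 0.0104). Of the 16 Igha UMIs of macrophages, 15 lay in the Anti-PD-1 + Anti-CTLA-4 Percoll library, which also held the most Jchain, and without that library the level was 0.0174 CPM in macrophages and 1.88 in T cells. Igha stood at 8.21 CPM in NK cells, on 9 UMIs (adjusted p = 0.0357 against macrophages, exact permutation). All 9 came from 6 of the 8 Percoll libraries, and the 139 NK cells of whole tumor libraries had none. Of the cells with a UMI, 92 of 152 macrophages held 1 of Ighg2b and 78 of 91 T cells held 1 of Igha.

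In B cells, λ constant UMIs far exceeded λ V segment UMIs. In the B gate, Iglc1, Iglc2 and Iglc3 took 59.5% of light chain constant UMIs, from 48.1% to 68.6% over the 16 libraries. Iglv segments took 6.84% of light chain V segment UMIs, from 0.259% to 12.2%. The constant share exceeded the V segment share in every library, and the ranges did not overlap. Of 2369 B cells, 1729 (73.0%) held UMIs of Igkc and of an Iglc gene, although a B cell normally makes 1 kind of light chain.

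**Figure D3:**
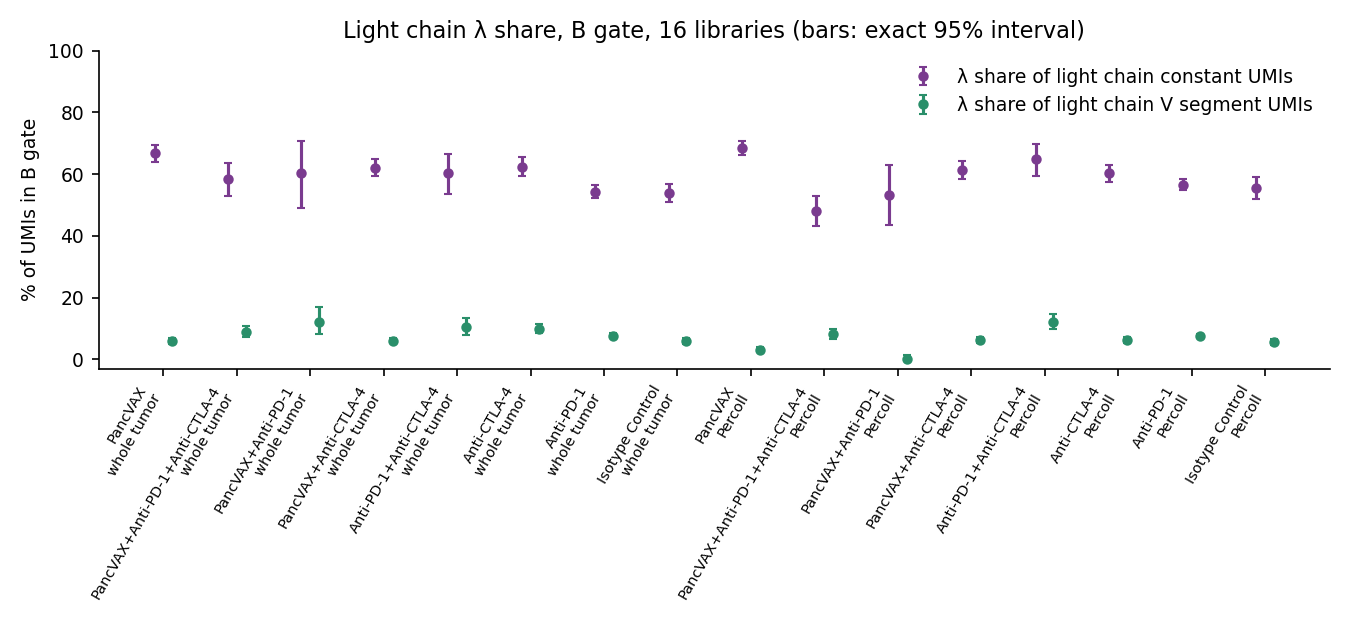
λ share of light chain constant UMIs (purple) and of light chain V segment UMIs (green) in the B gate of each of the 16 libraries, in percent; bars are exact 95% intervals that cover counting error only. Constant shares lie between 48.1% and 68.6% and V segment shares at or under 12.2% in every library.

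The light chain constant genes were then read against the V segments of the same cells, in a split made after the levels had been seen. Cells with 10 or more Igkv and no Iglv UMI (κ cells, 1224) had 1106 CPM of Iglc2, and cells with 2 or more Iglv and under 10 Igkv UMIs (λ cells, 153) had 1056. Over the 6 pools with enough cells, the log2 difference of λ over κ cells was -0.10 (SD 0.36, higher in 3 of 6, exact sign-flip permutation p = 0.438). Igkc was 1387 CPM in κ and 358 in λ cells (log2 -2.14, SD 0.82, lower in 6 of 6 pools). Iglc3 was 717 CPM in κ and 352 in λ cells (log2 -0.99, SD 0.68, lower in 6 of 6). Both had the smallest p that 6 pools allow (exact permutation p = 0.03125, adjusted 0.0625 over 4 tests). The split itself counted Igkv UMIs, which belong to the same rearranged transcripts as Igkc. The lower Igkc of λ cells therefore follows in part from the split, and its cutoffs for Igkv and Iglv were unequal. Iglc1 was 114 CPM in κ and 237 in λ cells (log2 0.62, SD 1.18, exact permutation p = 0.25). By the split, the Iglc2 and Iglc3 UMIs of κ cells came without an Iglv UMI in the same cells.

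B cells of the tumors were mostly unswitched. Ighg1, Ighg2b, Ighg2c, Ighg3, Ighe and Igha together gave 103 of 9095 heavy chain constant UMIs in the B gate (1.13%, exact 95% interval 0.925% to 1.37%). The share ran from 0.404% in the Isotype Control pool and 0.462% in the Anti-PD-1 pool to 4.29% in the PancVAX + Anti-PD-1 + Anti-CTLA-4 pool, where 9 of the 21 switched UMIs were Ighg2b UMIs of 1 cell. Of the 2369 cells, 1792 had no heavy chain class at this depth. The class of the others was Ighm in 530, Ighd in 42, Ighg2b in 2, and Ighg1, Ighg2c and Igha in 1 each. The ratio of Ighd to Ighm UMIs was 0.444, from 0.0984 in the PancVAX + Anti-PD-1 pool, with 30 B cells, to 0.508 in the Anti-PD-1 pool. Of the other constant genes, Ighg3 had 1.94 CPM in the B gate and Iglc1 120 CPM (618 UMIs), and Ighe had no UMI in its 2369 cells, which allows up to 0.582 CPM.

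The share of B cells varied widely between pools, and no agent moved it beyond the spread. It was highest with Anti-PD-1 (13.3% of passing cells) and lowest with PancVAX + Anti-PD-1 (0.285%). The mean was 3.00% ± 2.16 (SD, n = 4) with PancVAX and 6.50% ± 5.03 without (exact permutation p = 0.286, adjusted 0.503). It was 4.27% ± 6.05 with anti-PD-1 and 5.23% ± 0.982 without (exact permutation p = 0.857) and 3.19% ± 1.77 with anti-CTLA-4 and 6.31% ± 5.34 without (exact permutation p = 0.314). Without the Anti-PD-1 pool the differences were -1.25 percentage points for PancVAX, -3.95 for anti-PD-1 and -0.82 for anti-CTLA-4, against -3.50, -0.96 and -3.13 with it. Percoll libraries had a higher share than whole tumor libraries in 7 of 8 treatments (5.47% ± 4.77 against 4.03% ± 3.35, exact sign-flip permutation p = 0.0234, adjusted 0.188).

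Within the B gate, none of the 8 members tested passed the threshold with any agent. UMIs summed by pool were fitted with all 3 agents (edgeR's quasi-likelihood test with Benjamini-Hochberg adjustment over 6774 genes, called at an adjusted p below 0.05 and a log2 fold change beyond 0.5). Ighg1 and Ighg2c did not pass the filter on low counts. Over all genes, 0% were called for PancVAX, 0% for anti-PD-1 and 0.0148% (1 gene) for anti-CTLA-4. At an unadjusted p below 0.05 there were 381, 250 and 267 genes, and DESeq2 called 6, 0 and 0. The 1 gene called was the segment Igkv9-129, lower with anti-CTLA-4 (log2 -5.25, SE 0.77, edgeR, adjusted p = 0.0197). Such a segment can pass the filter on low counts through the pools where it is high, and its UMIs and cells are not given here. For anti-CTLA-4, 0 genes were called with DESeq2, over 16 libraries or in either preparation alone.

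Among the members that passed the filter on low counts, Ighg2b had the largest fitted difference with PancVAX. A gene with few UMIs, such as Ighg2b (37) or Jchain (30), can pass this filter through the pools where it is high. The rank of such genes is therefore not read as a result. The Ighg2b UMIs in the B gate numbered 3, 12, 0 and 16 in the pools with PancVAX (PancVAX, PancVAX + Anti-PD-1 + Anti-CTLA-4, PancVAX + Anti-PD-1 and PancVAX + Anti-CTLA-4) and 0, 1, 5 and 0 without it. The groups overlapped, and the highest values were in the 2 pools with PancVAX and anti-CTLA-4 (30.7 and 23.3 CPM). They rest on few cells: 1 cell held 9 of the 12 UMIs of the first pool, and 2 cells held 5 and 6 of the 16 of the second. The log2 fold change was 2.60 (SE 0.78, edgeR, adjusted p = 0.458). Ighd ran from 172 to 515 CPM with PancVAX and from 532 to 619 without, at a log2 fold change of -0.55 (SE 0.20, edgeR, adjusted p = 0.712). The lowest Ighd value came from the pool with 30 B cells, and without that pool the log2 fold change was -0.35. Jchain (30 UMIs, in 3 pools) had a log2 fold change of 2.23 (SE 1.06, edgeR, adjusted p = 0.884), which ran from 0.70 without the Anti-CTLA-4 pool to 5.68 without the Anti-PD-1 pool. That of Ighg2b ran from 2.11 to 4.08 with 1 pool left out.

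The other members differed less. With PancVAX the log2 fold changes were -0.26 for Ighm, -0.19 for Igkc, -0.14 for Iglc2, -0.02 for Iglc3 and -0.16 for Igha. With 1 pool left out, Igha (-0.81 to 0.38), Iglc2 (-0.45 to 0.17) and Iglc3 (-0.31 to 0.16) changed sign, Ighm ran from -0.42 to -0.05 and Igkc from -0.28 to -0.10. With anti-PD-1 the values were -0.94 (SE 0.73) for Igha, -0.54 (SE 0.19) for Iglc3 and -0.53 (SE 0.22) for Iglc2, each at an adjusted p of 0.9995 in edgeR. With 1 pool left out they ran from -1.24 to -0.27 for Igha, from -0.76 to -0.32 for Iglc3 and from -0.82 to -0.22 for Iglc2. With anti-CTLA-4, Jchain (2.08, SE 1.07), Igha (1.73, SE 0.70) and Ighg2b (1.64, SE 0.77) stood highest, each at an adjusted p of 0.9999 in edgeR. All of them have few UMIs (30, 34 and 37), and the same limit of the filter applies to their rank. With 1 pool left out, Jchain ran from 0.08 (without the PancVAX pool) to 5.72 (without the Anti-PD-1 pool), Igha from 1.20 to 2.63 and Ighg2b from 1.06 to 2.63. Single cells weighed in these sums too, as 1 cell held 12 of the 30 Jchain UMIs, and in the Anti-CTLA-4 Percoll library 1 cell held 8 of 10 Igha UMIs. The 3 agents were compared over the same 8 pools, so that these values are not independent of each other.

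Between preparations, Ighd fell in the Percoll B cells. Over the 8 whole tumor libraries it ran from 240 to 792 CPM (median 617) and over the 8 Percoll libraries from 135 to 504 (median 417). The ranges overlapped, but Percoll was lower in 8 of 8 treatments, with a log2 fold change of -0.58 (SE 0.087, edgeR with treatment as a block, adjusted p = 6.0e-05). Of 5337 genes tested 8.21% were called, 280 higher and 158 (2.96%) lower, and of the 5 members tested Ighd was the 1 called. Ighm went from a median of 1417 to 1089 CPM (lower in 8 of 8, log2 -0.41, SE 0.076, edgeR, adjusted p = 0.00065). Iglc3 went from 783 to 531 CPM (lower in 8 of 8, log2 -0.41, SE 0.092, edgeR, adjusted p = 0.0037). Both passed on p but not on the fold.

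Igkc and Iglc2 moved less. Igkc went from a median of 1371 to 1153 CPM (lower in 7 of 8, log2 -0.17, SE 0.074, edgeR, adjusted p = 0.149). Iglc2 went from 979 to 1093 CPM (lower in 5 of 8, log2 0.01, SE 0.079, edgeR, adjusted p = 0.984). The median over all genes tested was a log2 fold change of 0.01, against -0.41 for the 5 members. Preparation, sequencing batch and any loss of cells on the gradient cannot be told apart here.

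**Figure D4:**
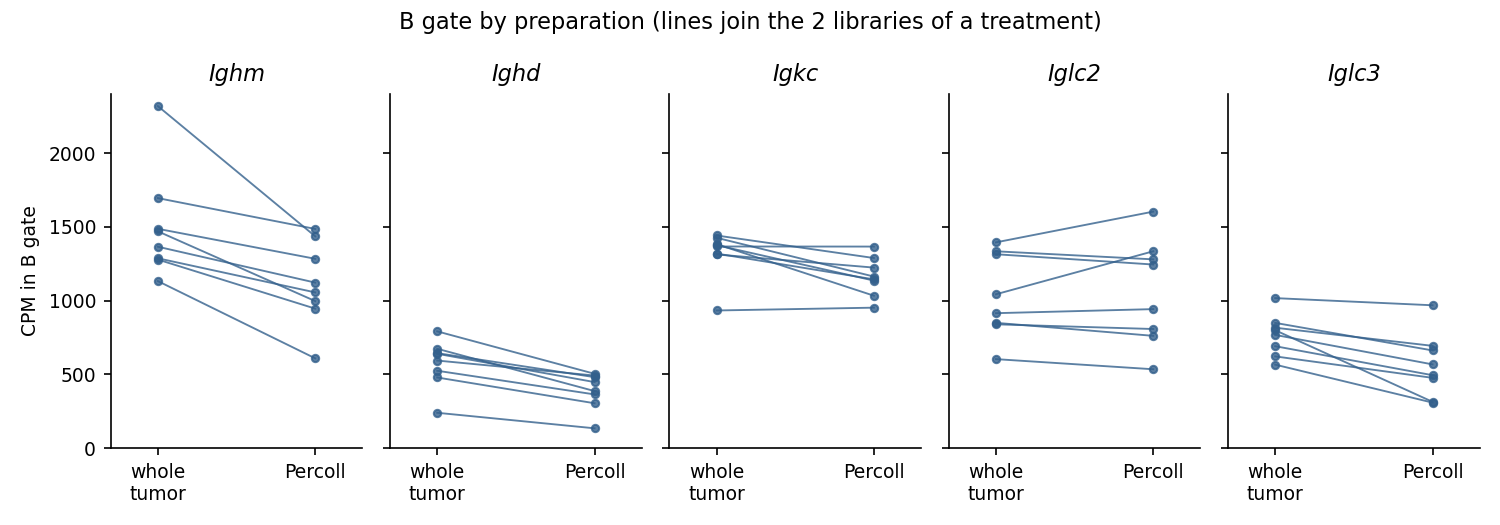
CPM in the B gate (y axis) for the 5 members tested between preparations; each line joins the whole tumor and the Percoll library of 1 treatment. All 8 lines fall for Ighd, Ighm and Iglc3, 7 of 8 fall for Igkc, and Iglc2 shows no common direction.

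Genes around the receptor were read in the same fit from chosen lists. Among 107 V, D and J segments tested, 5 rose and 4 fell in Percoll B cells, a share near the 8.21% of all genes called in this comparison. These were led by Igkv1-88 (log2 -3.16, SE 0.40), Igkv17-127 (-1.39, SE 0.28), Iglv2 (-1.48, SE 0.33), Igkv13-85 (1.20, SE 0.31) and Ighv9-3 (1.10, SE 0.31). Of 15 genes of receptor signaling, Lyn, a kinase that acts on the receptor, rose (0.58, SE 0.12), and none fell. Of 13 genes of B cell identity and homing, Tnfrsf13b, which encodes the receptor TACI (-0.71, SE 0.16), and Cxcr5, the receptor for follicle homing (-0.52, SE 0.14), fell and none rose. Of 2 germinal center genes tested, Basp1 fell (-1.36, SE 0.41), and 0 of 10 secretory genes were called. Of 2 immunoglobulin receptors tested, Fcgr2b, the inhibitory IgG receptor of B cells, rose (0.68, SE 0.15), and Fcer1g, a signaling chain of myeloid receptors, fell (-0.86, SE 0.20). All of these had adjusted p at or below 0.0359 in edgeR. For the 3 agents, 0 genes of these lists were called in the B gate (123 segments, 15, 13, 5, 13 and 3 genes tested), except for Igkv9-129.

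In the T gate, Ighm, Igkc and Igha fell with PancVAX. T cells are not known to make antibody, and where these UMIs come from was not tested. Ighm was 53.8, 40.1, 38.6 and 66.6 CPM in the pools of PancVAX, PancVAX + Anti-PD-1 + Anti-CTLA-4, PancVAX + Anti-PD-1 and PancVAX + Anti-CTLA-4. It was 82.2, 75.3, 77.6 and 76.4 CPM in Anti-PD-1 + Anti-CTLA-4, Anti-CTLA-4, Anti-PD-1 and Isotype Control. The groups did not overlap, and the 4 pools without PancVAX lay close together (77.9 ± 3.00, SD, n = 4, against 49.8 ± 13.1). The log2 fold change was -0.76 (SE 0.13, edgeR, adjusted p = 0.0021).

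Igkc was 8.74, 7.12, 7.70 and 5.26 CPM in the same pools with PancVAX and 12.1, 8.95, 16.4 and 15.6 without, in the same order. The groups did not overlap, though Anti-CTLA-4 lay close to PancVAX. The log2 fold change was -0.95 (SE 0.15, edgeR, adjusted p = 0.0014). Igha was 0.524, 1.17, 2.00 and 1.28 CPM with PancVAX and 3.28, 3.04, 2.67 and 3.02 without, on 43 and 68 UMIs. The groups did not overlap, with a log2 fold change of -1.29 (SE 0.34, edgeR, adjusted p = 0.021). In whole tumor libraries alone they overlapped (0 to 1.88 CPM with PancVAX and 0.877 to 2.78 without), and Igha had no fit there. In Percoll libraries alone they did not (0.632 to 2.10 CPM with PancVAX and 3.31 to 4.40 without). The call of Igha was lost in 8 of 19 alternatives, among them DESeq2 (adjusted p = 0.0535) and the fit with no upper limits on genes and UMIs (log2 -0.52, adjusted p = 0.274 in edgeR). It was also lost without any 1 of the PancVAX + Anti-PD-1 + Anti-CTLA-4, PancVAX + Anti-CTLA-4, Anti-PD-1 + Anti-CTLA-4, Anti-CTLA-4 or Isotype Control pools (adjusted p = 0.0546 to 0.0787 in edgeR). The last of the 8 was T cells with a TRB contig in the Percoll libraries alone (adjusted p = 0.0625 in edgeR). Ighd, on 61 UMIs, had a log2 fold change of -1.05 (SE 0.37, edgeR, adjusted p = 0.073).

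Of 11344 genes tested in the T gate, 9.85% were called for PancVAX (668 higher and 449 lower) and 3.96% were lower, against 3 of the 4 members tested. At an unadjusted p below 0.05 there were 3816 genes in edgeR. How many of the 11344 had groups that did not overlap was not counted, so the lack of overlap above only describes the 3 members. A gene with few UMIs, such as Igha (111) or Ighd (61), can pass the filter on low counts through the pools where it is high. The 3 of 4 was therefore not tested against the share of all genes. Iglc2, Iglc3, Ighg1, Ighg2b, Ighg2c and Jchain did not pass the filter on low counts. Anti-PD-1 and anti-CTLA-4 called 0% of genes each (468 and 423 at an unadjusted p below 0.05, and 3 and 0 by DESeq2), with no member called. Between preparations 5.85% of 10643 genes were called (2.9% lower), and none of Ighm (log2 -0.10, edgeR, adjusted p = 0.183), Igkc (0.12, adjusted p = 0.700) and Igha (0.50, adjusted p = 0.347). The PancVAX effect differed between preparations for 0 of 10411 genes in the T gate and 0 of 4765 in the B gate (362 and 167 at an unadjusted p below 0.05, edgeR). This fit took the 16 libraries with the agents as covariates and no treatment block, so that it did not use the pairing of libraries. The share of B cells, beside these values, was 3.00% with PancVAX and 6.50% without, and its part in the T gate values was not tested.

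**Figure D5:**
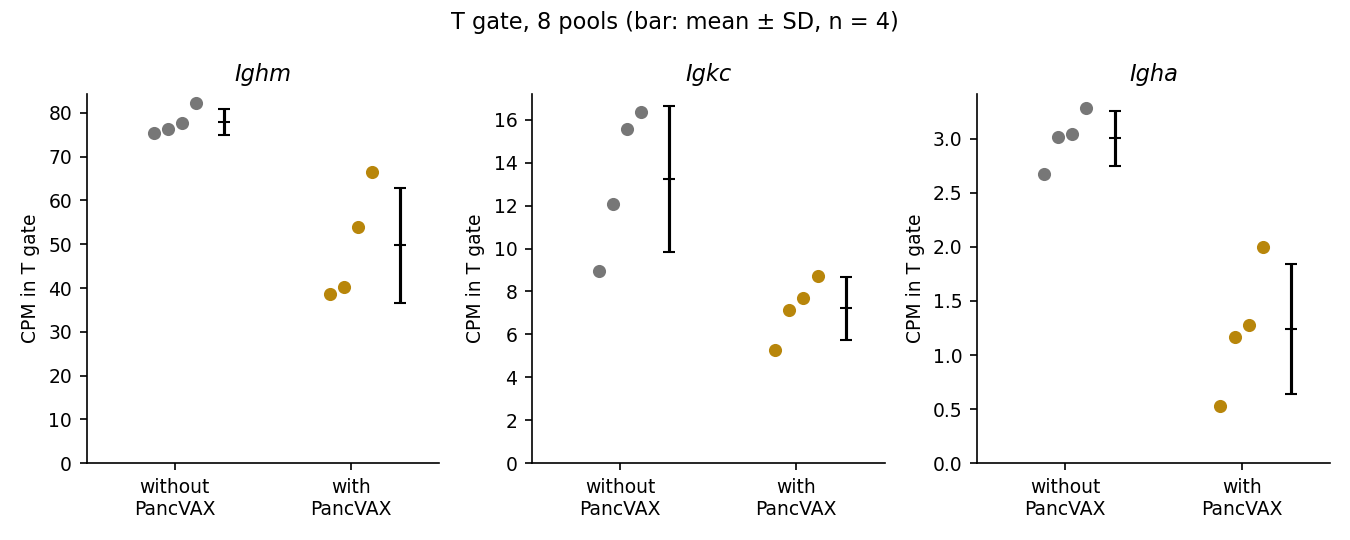
CPM of Ighm, Igkc and Igha in the T gate (y axes from 0); points are the 4 pools without (gray) and with (gold) PancVAX, and bars the mean ± SD. No pool with PancVAX reaches the lowest pool without it for any of the 3 genes. The share of all tested genes that separate in this way is not given here.

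The makeup of the T gate also differed with PancVAX, so Ighm was read in subsets, a split made after the fit had been seen. CD8 T cells with a Pdcd1 UMI had 37.1 CPM, those without 56.5, CD4 T cells without a Foxp3 UMI 69.4 and those with one 280 (exact 95% interval 247 to 315). Igkc had another order, at 12.0 CPM in CD8 T cells with Pdcd1 and 5.83 in those without. It was 4.94 CPM in CD4 T cells without Foxp3 and 15.8 in those with it. The part of the makeup in the lower Igkc of pools with PancVAX was not tested. CD8 T cells with a Pdcd1 UMI were 30.8% to 39.6% of the T gate in pools with PancVAX and 44.4% to 53.8% without. Within CD8 T cells without Pdcd1, Ighm ran from 23.8 to 56.4 CPM with PancVAX and from 89.7 to 103 without (exact permutation p = 0.0286, the smallest possible, adjusted 0.0571 over 4 subsets). Within CD4 T cells without Foxp3 it ran from 40.7 to 77.0 CPM and from 91.1 to 135 (exact permutation p = 0.0286, adjusted 0.0571). In both subsets the groups did not overlap. In CD8 T cells with Pdcd1 they overlapped (20.4 to 38.6 against 36.6 to 60.3 CPM, exact permutation p = 0.0571), as they did in Foxp3 cells (189 to 373 against 211 to 340, exact permutation p = 0.743).

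In the other gates Ighm did not pass the threshold with any agent or preparation. Among 16 tests over macrophages, neutrophils, NK cells and pDCs the lowest adjusted p was 0.25 (exact permutation). In neutrophils Ighm ran from 113 to 131 CPM with PancVAX and from 106 to 112 without, so that it was higher where that of T cells was lower (log2 0.14, exact permutation p = 0.0286, adjusted 0.25). In macrophages it ran from 143 to 192 CPM with PancVAX and from 166 to 188 without (log2 -0.10, exact permutation p = 0.314).

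Other genes of the lists moved in the T gate with PancVAX. Among the 7 identity genes tested, Tnfrsf13c, the BAFF receptor, rose (log2 1.87, SE 0.36). Of 13 secretory genes, Txndc5 (0.83, SE 0.095) and Xbp1 (0.50, SE 0.081), of protein folding and its control, rose. Of 7 immunoglobulin receptors, Fcgr2b (2.40, SE 0.19) and Fcgrt, the recycling receptor of IgG (1.40, SE 0.14), rose and Fcer1g fell (-1.43, SE 0.089). All of these had adjusted p at or below 0.00447 in edgeR, where 9.85% of all genes were called. None of 8 receptor signaling and 8 germinal center genes was called, and no V, D or J segment passed the filter. Between preparations, Tnfrsf13c (0.73) and Tent5c (0.83) rose and Fcgr3 (-0.80) fell in Percoll T cells.

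The genes most like each member were found by Pearson's r of log2(CPM + 10) over 125 sums of a gate in a library, among 5982 genes that are no immunoglobulin gene. For Ighm they were Stap1 (0.92), Prkcb (0.91), Hvcn1 (0.89), Arhgap4 (0.87) and Napsa (0.87), and for Igkc Gm30211 (0.99), Fcmr (0.99), Pax5 (0.98), Blk (0.98) and Mzb1 (0.98). For Jchain they included Fcer2a (0.47), Blk (0.45), Mzb1 (0.45) and Ms4a1 (0.45), where the plasma gate, with under 10 cells a library, had no sum. Over the 16 T gate sums Igkc was most like Eipr1 (0.83), Srgap3 (0.81), Iqsec1 (0.81) and Rbl2 (0.81). The sums share libraries and depth. The values over 125 sums describe the order of the gates, and those over the T gate sums do not.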

How the data were processed

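Single-cell RNA was measured in 16 libraries made with a 5′ kit. Per the labels and the paper, the authors aligned and counted reads with Cell Ranger 4.0.0 on mm10 and analysed them with Seurat, and the deposited values are raw UMI counts per gene and barcode. No source used here says whether counting used strand. The matrix pools the libraries, and the number that ends a barcode was matched to the number that starts a sample description. Deposited T cell receptor contigs, a table of 8 Percoll libraries, were used for 1 alternative.

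Cells passed the limits of the study and were placed in gates by marker UMIs. No doublet caller was run, and cells of several gates were left out (plasma over B excepted). CPM is the UMIs of a gene per 1000000 UMIs of the gate. UMIs of a 5′ kit do not scale with transcript length. Thinned shares are the calculated chance that 1000 UMIs of a cell include the gene, averaged over the cells of the gate. No UMIs were drawn at random, and no cell was left out. Counts were summed by pool for the agents (4 pools with an agent against 4 without) and by library for the preparations, with treatment as a block, which is the paired fit. They were tested by edgeR 4.0.16 (quasi-likelihood test, TMM, filterByExpr, SE as the log2 fold change over the root of F) with Benjamini-Hochberg adjustment, in R 4.3.3 with limma 3.58.1. The fit of the PancVAX effect between preparations used libraries with the agents as covariates and no treatment block. The study tested cells with MAST and controlled for batch. Counts were summed here because cells of a pool are not replicates of a treatment. Shares and single levels were tested by exact two-sided permutation over 70 splits of 8 pools (smallest p 0.0286) or 256 sign patterns of 8 pairs (smallest p 0.0078). Levels for the order of gates were log2(CPM + 10). Intervals are exact at 95% and, like the floor of 3 counts, cover counting error only. Alternatives were DESeq2 1.42.0, other scalings and filters, other limits and gates, single preparations and each pool left out. The fits were tested on simulated data.

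The members and lists were chosen with earlier results of these data known. Genes named are the 10 members, Ighg3, Ighe and Iglc1, up to 5 called genes of each list by smallest p, the 5 genes most like Ighm, Igkc and Jchain, and V segments leading in plasma cells. A few genes that these rules name are not reported here. Lists were V, D and J segments, receptor signaling, identity and homing, germinal center, secretory and immunoglobulin receptor genes. Tests said to follow the levels, the T cell subsets and the contig alternative were chosen after seeing the data. Sequence and coordinates are from RefSeq (GRCm38.p6). Python 3.11.15 with numpy 2.4.6, pandas 2.3.3, scipy 1.17.1 and matplotlib 3.10.9 was used.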

Additional observations from a re-analysis of the deposited data

Results flagged for a closer look

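Of 56 groups of 4 to 8 pools or libraries, 5 had 1 value far from the rest by Dixon's test at 95%. A rate of about 1 in 20 by chance holds for independent groups of normal values. These groups share cells, and Jchain was mostly 0 in the B gate, so the 5 of 56 cannot be set against that rate. Igkc in the B gate of the whole tumor libraries was lowest in PancVAX + Anti-PD-1 + Anti-CTLA-4, at 933 CPM, with the nearest at 1313. Igkc in the T gate of the whole tumor libraries was highest in Anti-PD-1, at 16.1 CPM, with the nearest at 11.0. The same library had the highest share of B cells among whole tumor libraries, 11.1% with the nearest at 5.21%. Jchain in the B gate was at 2.84 CPM in the Anti-PD-1 pool and 0 in the other pools without PancVAX. Among Percoll libraries, Jchain in the B gate stood at 36.1 CPM in PancVAX + Anti-CTLA-4, with the nearest at 8.70, and all 12 UMIs of this value lay in 1 of 144 cells. The 2.84 CPM of the Anti-PD-1 pool were 5 UMIs in 2 cells. No cause of these values was tested.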

How the results depend on the processing

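Of 760 values of members under alternatives, 750 kept their side of the threshold, 8 lost the call (Igha in T cells with PancVAX) and 2 gained it (Iglc3 lower in Percoll B cells with a stricter B gate, -0.52, and without the PancVAX pool, -0.50). None reversed a call. Ighd in Percoll B cells was called in 17 of 17 alternatives (-0.61 to -0.55), Ighm (-0.90 to -0.56) and Igkc (-1.20 to -0.71) in T cells with PancVAX in 20 of 20, and Igha in 11 of 19 (-1.68 to -0.52). No share difference passed the threshold in any of 112 values under alternatives, but 6 changed sign, and with 1 pool left out the B gate share ran from -3.95 to 0.37 percentage points for anti-PD-1 and from -5.28 to -1.25 for PancVAX. Of the 760 values of members, 64 changed sign, none of a called difference. With the agents as covariates in place of the treatment block, no call of a member changed.

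Counts of genes called moved by more than 1.5 times as follows. For PancVAX in the B gate (0) they were 6 with DESeq2, 47 with no filter on low counts, 1 with no upper limits, 5 with a stricter B gate, 3 over 16 libraries and 1 in whole tumor libraries. For anti-PD-1 (0) they were 28 with no filter, 1 in whole tumor and 2 in Percoll libraries. For anti-CTLA-4 (1) they were 30 with no filter, 2 with a stricter gate, and 0 with DESeq2, over 16 libraries and in either preparation alone. In the T gate they were 665 for PancVAX (1117) in the Percoll libraries alone with cells that had a TRB contig. They were 3 (DESeq2), 9 (no filter) and 1 (whole tumor) for anti-PD-1, 2 (no filter) for anti-CTLA-4, and 404 for Percoll (623) with DESeq2. With 1 pool left out, the counts in the B gate ran from 0 to 12 (PancVAX), 0 to 2 (anti-PD-1), 0 to 3 (anti-CTLA-4) and 312 to 468 (Percoll), and in the T gate from 883 to 1221, 0 to 1, 0 to 1 and 534 to 681. The cause of these shifts was not tested. Few UMIs lay behind the switched genes (103 in the B gate), and the upper limits on genes and UMIs removed 21 of 32 plasma-type barcodes, which left 10 cells in the plasma gate.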
